A study of Homo sapiens with 4 samples.

Results

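The mRNA levels of 10 genes of autophagy and of BNIP3-type mitophagy were compared in 786-O cells without restored VHL (786-O-Ctrl, here control cells) and with it (786-O-VHL, here VHL-restored cells). They were BNIP3, BNIP3L, SQSTM1, MAP1LC3B, GABARAPL1, ULK1, WIPI1, BECN1, ATG5 and ATG9A, chosen by symbol out of the 12912 genes of the count table, and each symbol had 1 entry that was used. All 10 passed the filter on low counts, as did 12335 genes in all. GABARAPL1, MAP1LC3B and ULK1 were about 2-fold to 3-fold higher in VHL-restored cells, SQSTM1 was 1.45-fold higher, BNIP3 was lower by 20.2%, and BNIP3L, WIPI1, BECN1, ATG5 and ATG9A did not pass the test.

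Macroautophagy encloses cytoplasm in a double membrane, the autophagosome, which then fuses with the lysosome. The ULK1 kinase complex starts the process, the class III phosphatidylinositol 3-kinase with BECN1 marks the site with PI3P, WIPI proteins bind that lipid, ATG9A vesicles bring membrane, and an ATG5-containing conjugate attaches ATG8-family proteins such as MAP1LC3B and GABARAPL1 to the growing membrane. Receptors tie cargo to the ATG8 proteins. SQSTM1 (p62) carries ubiquitin-marked cargo, while BNIP3 and BNIP3L (NIX) sit in the outer mitochondrial membrane and direct mitochondria to autophagosomes. In many cells hypoxia raises BNIP3 through hypoxia-inducible factors (HIF), which VHL marks for destruction when oxygen is present.

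786-O is a human clear cell renal carcinoma line without functional VHL, and it is known to make HIF2α but not HIF1α. Both groups were sublines with a triple reporter, a fusion of thymidine kinase, GFP and luciferase, grown in RPMI1640 with fetal bovine serum. 786-O-VHL additionally carried a retroviral pBabe-puro vector for HA-tagged VHL, and the sources used here do not say whether the control subline carried an empty vector. Bulk RNA-seq was done on 2 libraries of each group. Each group was 1 subline, so restoration of VHL and any other difference between the sublines cannot be told apart. The sources used here do not say that the 2 libraries of a group came from separate cultures, and the p-values then measure only the spread between these libraries, which may be technical. In bulk RNA, fewer cells of a type and less RNA per cell cannot be told apart either.

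The deposited values were raw read counts per gene. Totals were 22141263 and 15714166 in the control libraries, which are called the deeper and the shallower one, 2807779 in 786-O-VHL replicate 1 and 16114120 in 786-O-VHL replicate 2, so that 786-O-VHL replicate 1 had by far the lowest depth. VHL itself was at 42.9 and 43.9 CPM (read counts relative to the TMM-scaled library size) in control cells and at 178 and 163 CPM in VHL-restored cells, a log2 fold change of 1.96 (SE 0.0706, edgeR FDR 2.86e-19), and the counts do not separate vector from endogenous transcripts. All 9 markers of a renal tubule carcinoma line had counts, with summed levels between 2382 and 3821 CPM in a library. The largest part was VIM, on average at 1684 CPM in control cells and 730 CPM in VHL-restored cells. Of the 9 markers, 6 were called lower and 1, CDH6, higher in VHL-restored cells. The share called was 77.8%, against 64.5% of all genes tested. MME fell most, from 34.9 to 1.68 CPM on average (log2 fold change -4.38), so the sublines differed in these markers. Of 5 leukocyte markers only CD14 had an entry, at 0.0665 to 1.02 CPM, and the 3 endothelial markers with entries summed to between 0.678 and 1.33 CPM. Their part in the results below was not tested.

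Differences were tested with the quasi-likelihood F test of edgeR on the counts, fitted over all 12335 genes, and a gene was called at a Benjamini-Hochberg FDR below 0.05. Of the 10 genes, 4 were called higher and 1 lower in VHL-restored cells. The sublines differed widely, and 64.5% of all genes tested were called, 32.6% as higher and 31.9% as lower. A share of 5 in 10 members is thus no larger than the share of all genes. Of the members 3 were called and had a fitted rise of more than 2-fold, against 10.0% of all genes tested. The intervals of MAP1LC3B (1.91 to 2.29) and ULK1 (1.87 to 2.26) include 2. The members were chosen with earlier results of these data known, so this comparison is a description and not a test. The median log2 fold change was 0.14 over the members and 0.02 over all genes tested. The libraries of the groups did not overlap for 9 of the 10 members, 7 of them higher and 2 lower, while among all genes tested 80.0% did not overlap, 40.8% as higher and 39.2% as lower. The exact permutation test on a single gene cannot go below p = 0.333 with 2 libraries against 2, so the FDR values rest on the spread that edgeR estimates across genes.

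**Figure D1:**
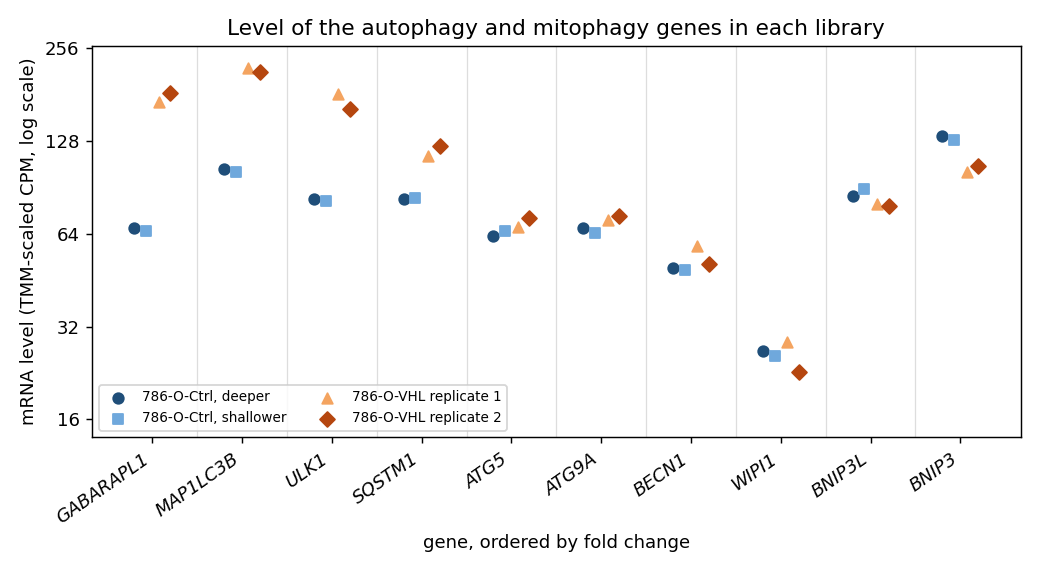
TMM-scaled CPM (log scale) of the 10 genes, 1 point per library, ordered by fold change. The 786-O-VHL points of GABARAPL1, MAP1LC3B, ULK1 and SQSTM1 lie above the 786-O-Ctrl points, those of BNIP3 lie below, and only for WIPI1 do the groups overlap.

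Both ATG8-family members rose. GABARAPL1 (ENSG00000139112.11, chr12:10365057-10375727, plus strand, GRCh37) encodes an ATG8 protein that attaches to late-forming autophagosome membrane and binds cargo receptors. Its counts were 1402 and 982 in control cells and 504 and 3075 in VHL-restored cells, which is 66.6 and 65.3 CPM against 171 and 183 CPM. Both VHL-restored libraries were far above both control libraries, and the pairs within a group lay close together. The mean rose from 65.9 ± 0.929 to 177 ± 8.23 CPM (SD, n = 2), 2.71-fold with a 95% confidence interval of 2.46 to 2.98 (log2 fold change 1.44, SE 0.0665, edgeR FDR 6.36e-17). Of all genes tested, 94.4% had a lower log2 fold change. An antisense gene, GABARAPL1-AS1, overlaps it, and since the use of strand in the counting is not given, reads of the pair cannot be told apart.

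MAP1LC3B (ENSG00000140941.13, chr16:87417559-87438385, plus strand) encodes LC3B, the lipid-linked protein widely used to mark autophagosomes. It was at 104 and 102 CPM in control cells and at 220 and 213 CPM in VHL-restored cells, from 648 counts in the least deep library to 3593 in 786-O-VHL replicate 2. The groups were apart by many times the distance within a group. The mean rose from 103 ± 1.74 to 217 ± 4.56 CPM (SD, n = 2), 2.10-fold with an interval of 1.91 to 2.29 (log2 fold change 1.07, SE 0.0638, edgeR FDR 2.03e-14). mRNA levels of these genes do not measure lipidation or autophagic flux.

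Among the other ATG8-family genes, GABARAPL2 was at 43.0 and 41.1 CPM in control cells and at 50.9 CPM in both VHL-restored libraries (log2 fold change 0.27, edgeR FDR 0.00603), a call that ended under DESeq2 and without the shallower control library (log2 fold change 0.24, FDR 0.114) or 786-O-VHL replicate 2 (0.27, FDR 0.102). GABARAP itself had only 17 and 9 counts in control cells and 1 and 14 in VHL-restored cells. An annotated gene overlaps it on the same strand, and how shared reads were counted is not given. Its counts may thus be too low, and the shares below rest on them. With levels divided by the length of all annotated exons, GABARAPL1 made 31.4% and 31.6% of the CPM per kb of the family in control cells and 40.5% and 42.7% in VHL-restored cells. The share of GABARAPL2 was 27.3% and 26.8% in control cells and 16.2% and 16.0% in VHL-restored cells, while that of MAP1LC3B stayed between 39.5% and 41.9% in the 4 libraries. These shares are free of the scaling between libraries but not of the length chosen: with the longest transcript as length, GABARAPL1 made 27.9% in control cells and 36.9% in VHL-restored cells. MAP1LC3A was not analysed here.

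**Figure D2:**
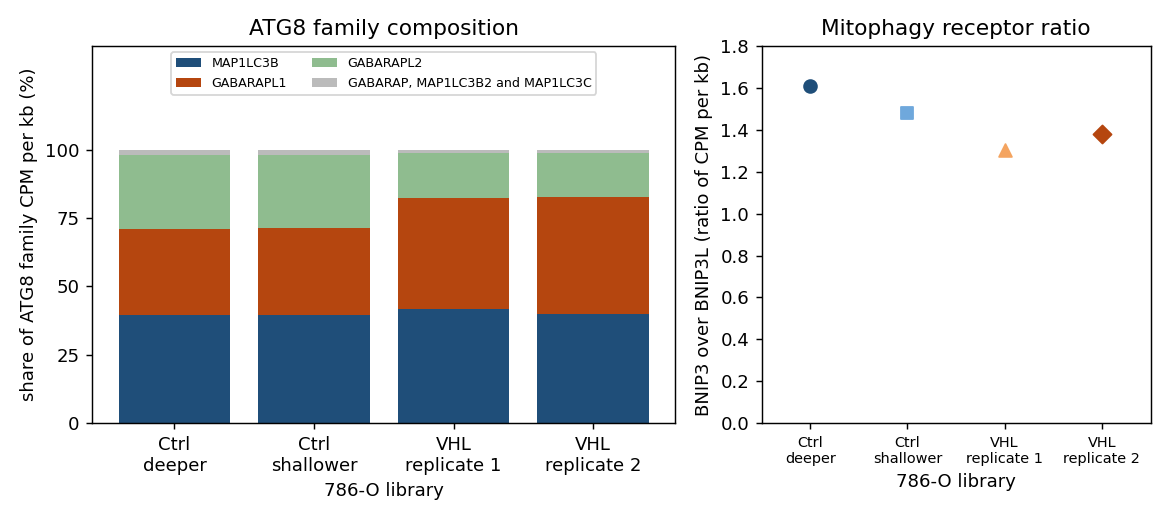
Left, the share of each ATG8-family gene in the summed CPM per kb of exon of the family (%), 1 bar per library. Right, the ratio of BNIP3 to BNIP3L in CPM per kb, 1 point per library. The GABARAPL1 share is 31.4% and 31.6% in control cells and 40.5% and 42.7% in VHL-restored cells, and the ratio falls from 1.61 and 1.48 to 1.30 and 1.38.

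ULK1 (ENSG00000177169.10, chr12:132379167-132407695, plus strand) encodes the protein kinase that starts autophagosome formation. Its level was 83.2 and 81.5 CPM in control cells and 182 and 163 CPM in VHL-restored cells. The VHL-restored libraries differed more from each other than the control libraries did, but both lay well above them. The mean rose from 82.3 ± 1.18 to 172 ± 13.8 CPM (SD, n = 2), 2.06-fold with an interval of 1.87 to 2.26 (log2 fold change 1.04, SE 0.068, edgeR FDR 1.41e-13). Another annotated gene overlaps ULK1 on the same strand.

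ULK1 binds RB1CC1 (FIP200), the scaffold of the same kinase complex, and RB1CC1 rose by nearly the same amount. It was at 123 and 122 CPM in control cells and 246 and 242 CPM in VHL-restored cells (log2 fold change 0.99, SE 0.063, edgeR FDR 7.44e-14). Of the 5 genes of the complex that were tested, 3 were called higher and 0 lower, which is 60.0% called against 64.5% of all genes tested. The third, ATG13, which bridges the kinase and the scaffold, had a log2 fold change of 0.23 (edgeR FDR 0.013) and lost the call without the shallower control library (0.21, FDR 0.122) and without 786-O-VHL replicate 1 (0.15, FDR 0.0655).

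SQSTM1 (ENSG00000161011.20, chr5:179233398-179265078, plus strand) encodes p62, the receptor that binds ubiquitin on cargo and ATG8 proteins on the membrane. It was at 83.1 and 83.7 CPM in control cells and at 114 and 124 CPM in VHL-restored cells. Both VHL-restored libraries were above both control libraries by several times the distance within a group. The mean rose from 83.4 ± 0.483 to 119 ± 6.55 CPM (SD, n = 2), 1.45-fold with an interval of 1.32 to 1.59 (log2 fold change 0.53, SE 0.0675, edgeR FDR 8.1e-08). MGAT4B and MRNIP overlap it on the opposite strand.

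All 7 genes tested from the list of ubiquitin-binding cargo receptors, which also holds the scaffold WDFY3, were called, 6 higher and 1 lower. Their median log2 fold change was 0.53. Of all genes tested, 64.5% were called, 32.6% as higher. NBR1, a receptor that works with p62, was at 94.5 and 106 CPM in control cells and 158 and 165 CPM in VHL-restored cells (log2 fold change 0.70, edgeR FDR 6.44e-10). The log2 fold change was 0.67 for WDFY3 (ALFY), a scaffold for protein aggregates, and 0.63 for TAX1BP1, which joins p62 and NBR1 on ubiquitin condensates. The lower gene was TOLLIP, an endosomal adaptor that binds ubiquitin and ATG8 proteins, at 86.8 and 80.3 CPM in control cells and 51.6 and 58.9 CPM in VHL-restored cells (log2 fold change -0.55, edgeR FDR 4.54e-07).

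Of the 2 outer-membrane mitophagy receptors among the members, BNIP3 fell and BNIP3L did not pass the test. BNIP3 (ENSG00000176171.11, chr10:133781188-133795471, minus strand) encodes a BH3-domain protein that binds LC3 and GABARAP proteins from the mitochondrial surface. Its counts were 2801 and 1938 in control cells and 299 and 1782 in VHL-restored cells, which is 133 and 129 CPM against 101 and 106 CPM. Both VHL-restored libraries were below both control libraries. The mean fell from 131 ± 2.98 to 104 ± 3.11 CPM (SD, n = 2), to 0.798 of its 786-O-Ctrl level with an interval of 0.726 to 0.877 (log2 fold change -0.33, SE 0.0665, edgeR FDR 0.000105), and 28.9% of all genes tested had a lower log2 fold change. With every library thinned to the shallowest the log2 fold change was -0.20 and the call was lost (FDR 0.0809). The annotation lists 44 pseudogenes named after BNIP3, of which 0 are in the count table, and how reads shared with them were counted is not given.

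BNIP3L (ENSG00000104765.16, chr8:26240570-26363152, plus strand) encodes NIX, the BNIP3 relative known for clearing mitochondria from maturing red cells. It was at 84.6 and 89.1 CPM in control cells and at 79.7 and 78.5 CPM in VHL-restored cells. The libraries did not overlap, but the distance between the groups was close to the distance within control cells. The fold was 0.909 with an interval of 0.822 to 1.00 (log2 fold change -0.14, SE 0.0706, edgeR FDR 0.0885), so the gene did not pass the test. With levels per kb of exon, the ratio of BNIP3 to BNIP3L was 1.61 and 1.48 in control cells and 1.30 and 1.38 in VHL-restored cells. BNIP3 gave more CPM per kb than BNIP3L in each library, and with the longest transcript as length the mean ratios were 1.70 and 1.48.

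Of 6 mitophagy receptors tested, 2 were called higher and 2 lower, with a median log2 fold change of -0.06. This is 66.7% called, against 64.5% of all genes tested. BCL2L13, an outer-membrane receptor of the BCL2 family, rose in both VHL-restored libraries (log2 fold change 0.63, edgeR FDR 7.21e-09). PHB2, an inner-membrane protein that binds LC3 after the outer membrane breaks, fell from 241 and 232 CPM to 176 and 154 CPM (log2 fold change -0.55, edgeR FDR 6.42e-08). FUNDC1, a further receptor linked to hypoxia, had a log2 fold change of 0.01 and was not called.

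The ubiquitin branch of mitophagy, in which the kinase PINK1 marks damaged mitochondria, had 3 genes called higher and 2 lower of 8 tested. This is 62.5% called, against 64.5% of all genes tested. PINK1 was at 65.3 and 67.2 CPM in control cells and at 38.0 and 38.2 CPM in VHL-restored cells (log2 fold change -0.79, SE 0.0819, edgeR FDR 1.8e-09). MUL1, a mitochondrial ubiquitin ligase, fell as well, with a log2 fold change of -0.48 (edgeR FDR 1.36e-05), whereas OMA1, the protease that can cleave PINK1, rose with a log2 fold change of 0.94 (edgeR FDR 4.34e-05).

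The 4 members that act between induction and conjugation did not pass the test. Their intervals cover the spread between these libraries under TMM scaling, and not other differences between cultures or sublines. BECN1 (ENSG00000126581.13, chr17:40962152-40985367, minus strand), the regulatory subunit of the PI 3-kinase complex, was at 49.7 and 48.6 CPM in control cells and 58.3 and 51.0 CPM in VHL-restored cells, a fold of 1.07 with an interval of 0.953 to 1.21 (edgeR FDR 0.292). WIPI1 (ENSG00000070540.13, chr17:66417089-66453654, minus strand), a PI3P-binding propeller protein, was at 26.7 and 25.8 CPM in control cells and 28.5 and 22.8 CPM in VHL-restored cells, a fold of 0.917 with an interval of 0.776 to 1.08 (edgeR FDR 0.363). For WIPI1 the VHL-restored libraries lay on either side of the control libraries, and its 84 counts in 786-O-VHL replicate 1 were the fewest of any member.

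ATG5 (ENSG00000057663.16, chr6:106493298-106773666, minus strand), part of the enzyme that attaches ATG8 proteins to lipid, was at 62.9 and 65.3 CPM in control cells and 67.2 and 71.9 CPM in VHL-restored cells, a fold of 1.10 with an interval of 0.994 to 1.22 (edgeR FDR 0.0924). Without 786-O-VHL replicate 1 its log2 fold change was 0.17 and it was called (FDR 0.036). ATG9A (ENSG00000198925.12, chr2:220084102-220094439, minus strand), the lipid scramblase of the membrane-supplying vesicles, was at 66.8 and 64.4 CPM in control cells and 70.9 and 72.9 CPM in VHL-restored cells, a fold of 1.10 with an interval of 0.995 to 1.22 (edgeR FDR 0.09). For ATG5, ATG9A and BECN1 every VHL-restored library lay above the control libraries, which was also so for 40.8% of all genes tested. The intervals of all 4 genes exclude a 2-fold change in either direction between these libraries under TMM scaling. With library totals alone as scaling, which moved the median log2 fold change of all genes to 0.15, ATG5, ATG9A and BECN1 were called higher.

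**Figure D3:**
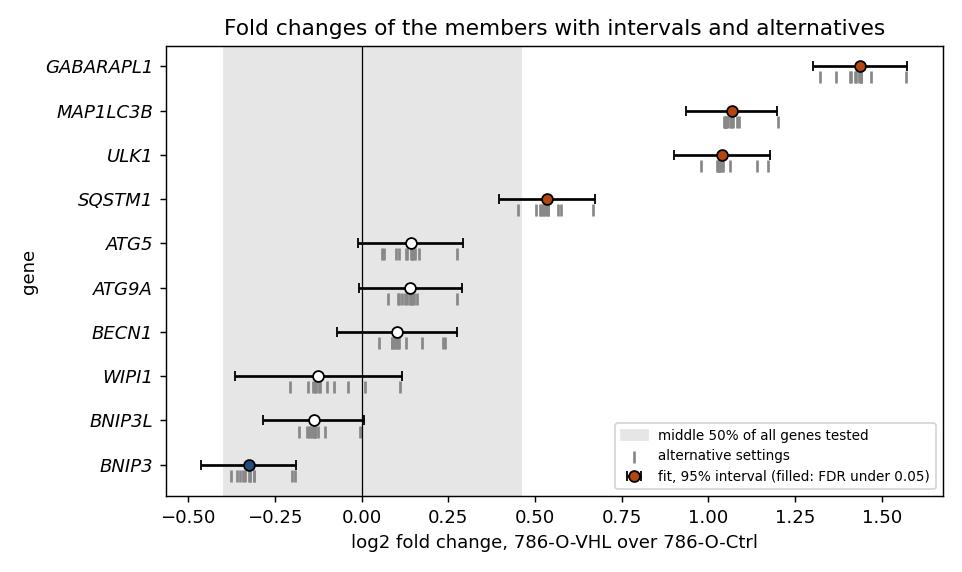
Log2 fold change of each gene, 786-O-VHL over 786-O-Ctrl, with its 95% confidence interval, small marks for the 12 alternative settings and a grey band for the interquartile range of all genes tested. GABARAPL1, MAP1LC3B, ULK1 and SQSTM1 lie above 0 in every setting, BNIP3 below 0 in every setting, and the marks of WIPI1 fall on both sides of 0.

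Per kb of exon the order of the genes changed between the groups. In 786-O-Ctrl the highest level was that of BNIP3, at 32.3 ± 0.736 CPM per kb (SD, n = 2), followed by BNIP3L at 20.9 ± 0.767 and MAP1LC3B at 20.4 ± 0.345, which did not differ beyond their spread, and by GABARAPL1 at 16.3 ± 0.229. In 786-O-VHL GABARAPL1 at 43.6 ± 2.03 and MAP1LC3B at 43.0 ± 0.906 CPM per kb came first and did not differ beyond their spread. BNIP3 followed at 25.6 ± 0.767, ULK1 at 22.6 ± 1.82 and BNIP3L at 19.1 ± 0.207. WIPI1 and BECN1 were the lowest in both groups, between 7.54 and 8.52 CPM per kb on average. The order depends on the length used, which these SDs do not cover. By the longest transcript SQSTM1, ranked 7 and 6 by exon length, ranked 3 in both groups. By that length MAP1LC3B at 69.1 ± 1.46 CPM per kb lay above GABARAPL1 at 55.0 ± 2.56 in VHL-restored cells, beyond their spread. In control cells MAP1LC3B at 32.8 ± 0.554 CPM per kb then lay above BNIP3L at 25.2 ± 0.922, also beyond their spread.

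The promoters of the 3 genes that rose most and of BNIP3 are shown because the hypoxia-inducible factors bind the core letters ACGTG or GCGTG, and TFEB, a transcription factor of autophagy and lysosome genes, binds around the letters CACGTG. The 250 bases before the RefSeq start (GRCh38.p14) are given 5′ to 3′ on the strand of the gene, from chr10:131981924-131982173 for BNIP3 (minus), chr16:87392086-87392335 for MAP1LC3B, chr12:131894372-131894621 for ULK1 and chr12:10212627-10212876 for GABARAPL1 (plus). Capitals mark every ACGTG and GCGTG on either strand.
BNIP3: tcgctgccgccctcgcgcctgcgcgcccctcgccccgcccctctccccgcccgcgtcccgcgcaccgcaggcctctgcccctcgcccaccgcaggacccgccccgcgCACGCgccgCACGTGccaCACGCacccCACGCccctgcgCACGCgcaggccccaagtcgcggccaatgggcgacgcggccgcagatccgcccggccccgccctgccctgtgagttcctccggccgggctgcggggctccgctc
MAP1LC3B: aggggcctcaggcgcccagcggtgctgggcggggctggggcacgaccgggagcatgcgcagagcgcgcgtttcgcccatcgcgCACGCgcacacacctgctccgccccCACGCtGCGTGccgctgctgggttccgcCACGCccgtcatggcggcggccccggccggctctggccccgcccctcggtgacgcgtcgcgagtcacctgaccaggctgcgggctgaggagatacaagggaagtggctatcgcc
ULK1: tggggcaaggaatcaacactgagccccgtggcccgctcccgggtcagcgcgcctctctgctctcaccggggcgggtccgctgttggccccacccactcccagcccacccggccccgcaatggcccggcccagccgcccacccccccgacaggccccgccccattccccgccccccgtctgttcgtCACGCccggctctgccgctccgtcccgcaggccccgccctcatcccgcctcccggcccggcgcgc
GABARAPL1: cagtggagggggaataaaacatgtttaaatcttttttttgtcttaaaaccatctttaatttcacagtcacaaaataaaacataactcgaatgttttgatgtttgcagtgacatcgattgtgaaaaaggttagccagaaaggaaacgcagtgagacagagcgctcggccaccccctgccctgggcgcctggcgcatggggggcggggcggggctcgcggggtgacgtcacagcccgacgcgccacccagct

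BNIP3 held 4 matches to GCGTG and 1 palindromic CACGTG, which contains ACGTG on each strand, between 104 and 143 bases before the start. MAP1LC3B held 4 matches to GCGTG from 114 to 167 bases before the start, ULK1 1 at 65 bases, and GABARAPL1 held neither core in this window. RefSeq windows were found for 9 of the 10 members, with 12 windows in all, and not for BNIP3L. ACGTG was in windows of BNIP3, ATG5 and ATG9A, against 18.5% of 35116 RefSeq promoters of the same length, and GCGTG in those of BNIP3, MAP1LC3B and ULK1, against 32.2%. The palindrome CACGTG was in that of BNIP3 alone, against 6.34% of promoters, and it overlaps the ACGTG counted there. These matches are descriptions of letters and not of binding. Genes with and without them were found among those that rose.

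Around the members, 86 genes were listed by their role in autophagy, and 81 could be tested. Of these, 36 were called higher (44.4%) and 13 lower (16.0%), 32 were not called, and the median log2 fold change was 0.20. The share of 60.5% called in either direction is close to the 64.5% of all genes tested, of which 32.6% were higher and 31.9% lower. The lists below hold few genes each and are to be read against these shares. Without the 10 members there were 32 higher and 12 lower of 71, with a median of 0.23. Leaving out single libraries gave between 26 and 37 higher and between 9 and 16 lower genes, DESeq2 called 23 higher and 11 lower, and library totals alone as scaling gave 49 higher and 11 lower. ATG9B, ATG16L1, MAP1LC3A and PLEKHM1 were not analysed here.

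**Figure D4:**
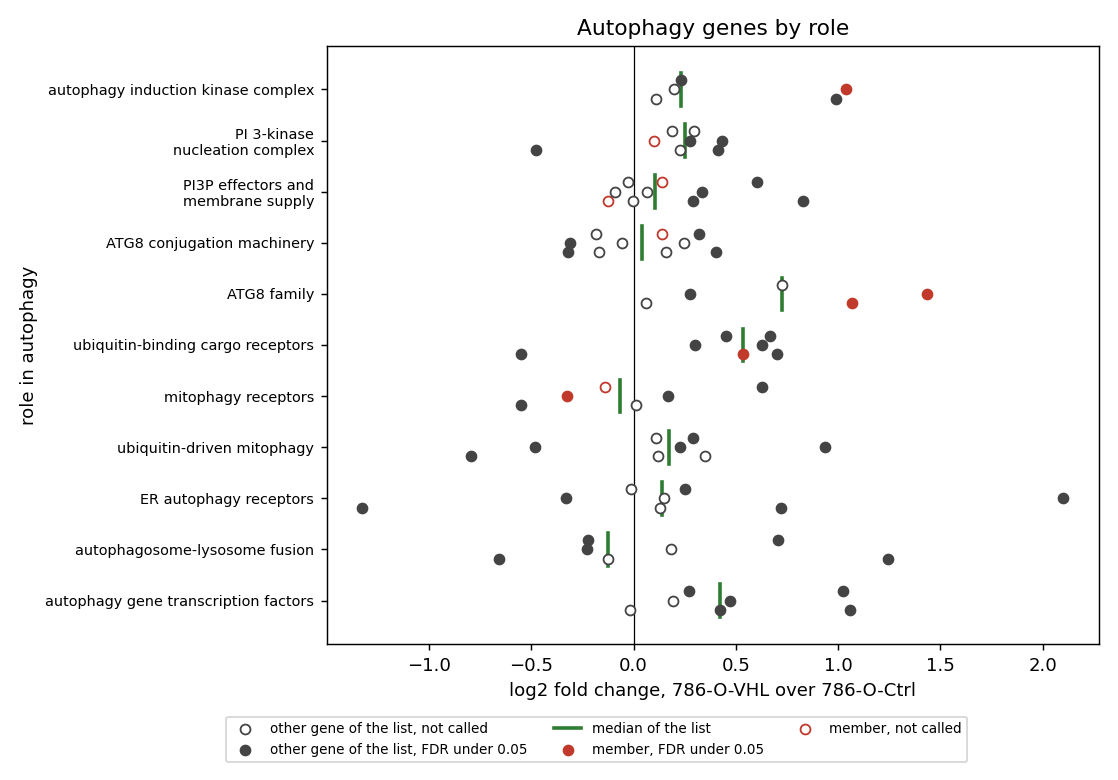
Log2 fold change, 786-O-VHL over 786-O-Ctrl, of each tested gene in 11 lists by role in autophagy, filled where edgeR FDR was below 0.05, with the 10 members in red and a bar at each list median. The medians run from -0.12 for fusion genes to 0.72 for the ATG8 family, where the median is the value of MAP1LC3B2, which had 5 to 21 counts in a library and was not called (edgeR FDR 0.183).

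In the nucleation complex 3 of 8 genes were called higher and 1 lower, while 64.5% of all genes tested were called. The higher ones were RUBCN (log2 fold change 0.43), UVRAG (0.41) and AMBRA1 (0.28). All 3 lost the call under DESeq2 (RUBCN 0.41, FDR 0.132, UVRAG 0.39, FDR 0.0946, and AMBRA1 0.23, FDR 0.249). With single libraries left out RUBCN lay between 0.39 and 0.44, UVRAG between 0.38 and 0.43, and AMBRA1 between 0.11 and 0.32. The lower one was PIK3R4 (VPS15), which anchors the lipid kinase, with a log2 fold change of -0.48 (edgeR FDR 0.000183). It lost the call without 786-O-VHL replicate 2 (log2 fold change -0.31, FDR 0.109). Of 10 PI3P effectors and membrane suppliers, 4 were called higher and 0 lower. WDR45 (WIPI4), a relative of WIPI1 that binds the lipid-transfer protein ATG2, rose from 15.8 and 16.2 CPM to 24.8 and 29.6 CPM (log2 fold change 0.83, edgeR FDR 9.42e-07). The conjugation machinery around ATG5 had 2 genes higher and 2 lower of 10 (all genes tested: 64.5% called), with a median of 0.04. The higher genes were ATG4C (log2 fold change 0.40, edgeR FDR 0.0423) and ATG4D (0.32, FDR 0.0214). Both lost the call under DESeq2 (ATG4C 0.44, FDR 0.163, and ATG4D 0.26, FDR 0.295). With single libraries left out ATG4C lay between 0.19 and 0.74 and ATG4D between 0.04 and 0.39. For ATG4D the libraries of the groups overlapped. The lower genes were ATG12, the ubiquitin-like partner joined to ATG5, and ATG4B, a protease that primes ATG8 proteins (log2 fold changes -0.32 and -0.31). Each lost the call in 1 alternative, ATG12 with every library thinned to the shallowest (-0.28, FDR 0.0744) and ATG4B without the deeper control library (-0.26).

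Receptors for the endoplasmic reticulum gave 3 higher and 2 lower of 8, which is 62.5% called against 64.5% of all genes tested. CCPG1, which is induced by endoplasmic reticulum stress, was at 6.93 and 4.98 CPM in control cells and at 27.1 and 25.7 CPM in VHL-restored cells (log2 fold change 2.10, SE 0.159, edgeR FDR 2.94e-12), and 4 annotated genes overlap it on the same strand. CALCOCO1 rose with a log2 fold change of 0.72 (edgeR FDR 4.37e-07), and RETREG2 fell with -0.33 (edgeR FDR 9.25e-05). RETREG1 (FAM134B) was also called lower but had 46 and 23 counts in control cells and 1 and 14 in VHL-restored cells, and it was not called without the deeper control library (log2 fold change -1.04, FDR 0.201) or without 786-O-VHL replicate 2 (-2.46, FDR 0.0921).

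Of 7 genes of autophagosome-lysosome fusion, 2 were called higher and 3 lower, which is 71.4% called against 64.5% of all genes tested. The lower calls of the SNARE genes VAMP8 (log2 fold change -0.22) and YKT6 (-0.23) were lost in 6 and in 2 of the 12 alternatives, with a highest FDR of 0.391 and 0.19. Both were lost without the deeper control library (VAMP8 -0.19, FDR 0.256, and YKT6 -0.22, FDR 0.0876), and VAMP8 also without the shallower one (-0.26, FDR 0.103) and without 786-O-VHL replicate 2 (-0.22, FDR 0.213). EPG5, a tether between autophagosome and lysosome, rose from 61.4 and 66.5 CPM to 118 and 167 CPM (log2 fold change 1.24, edgeR FDR 1.39e-12), and the VHL-restored libraries differed clearly from each other. STX17, the SNARE of the autophagosome, rose with a log2 fold change of 0.71 (edgeR FDR 3.4e-08), while SNAP29, its partner in the same SNARE bundle, fell from 32.2 and 31.6 CPM to 17.6 and 21.0 CPM (log2 fold change -0.66, edgeR FDR 1.19e-05).

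Of 7 transcription factors that act on autophagy genes, 5 were called higher and 0 lower, with a median log2 fold change of 0.42. This is 71.4% called, against 64.5% of all genes tested. TFEB was at 16.6 and 14.2 CPM in control cells and at 29.9 and 32.1 CPM in VHL-restored cells (log2 fold change 1.02, SE 0.12, edgeR FDR 2.21e-08). Its relative MITF rose with a log2 fold change of 0.47 (edgeR FDR 1.23e-05), and TFE3, a further relative, had -0.02 and was not called. FOXO4, of the FOXO factors that insulin signaling holds in the cytoplasm, rose from 7.93 and 8.71 CPM to 21.0 and 16.0 CPM (log2 fold change 1.06, edgeR FDR 2.28e-06). The mRNA level of these factors does not measure their activity, which is set largely by phosphorylation and location.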

How the data were processed

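RNA-seq of 4 libraries of the 786-O line was analysed, 2 per group. The authors aligned reads to hg19, and the deposited values are raw counts of 12912 genes without normalization. CASAVA and STAR are named in the submitters' processing notes, while the program and strand setting of the counting, like its annotation, were not given in the sources used here. Both 786-O-Ctrl columns carry the same replicate number and were told apart by depth. Groups come from the labelled genotype.

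The test was that of edgeR 4.0.16 (R 4.3.3), with filterByExpr at a minimum count of 10, TMM scaling (factors 0.951, 0.958, 1.05 and 1.045), group as the only term, the quasi-likelihood F test and Benjamini-Hochberg adjustment over 12335 genes. The study used DESeq2, which was an alternative here. Intervals of folds come from the SE. Replicates differed by more than counting noise (chi-square per degree of freedom 2.25 and 2.76), so none was counted as a duplicate. These values cannot tell technical replicates from separate cultures. A count of 0 allows up to 3 counts, or 0.142, 0.199, 1.02 and 0.178 CPM in the 4 libraries, for counting error only. Coordinates, overlaps and exon lengths come from GENCODE for GRCh37, which held 12749 of the identifiers, and promoters from RefSeq. Every member overlaps another annotated gene, on the same strand for ULK1, BNIP3L, WIPI1, ATG5 and ATG9A. How shared reads were counted is not given. The fit was run on simulated counts in which few genes changed and all genes shared the same dispersion. Such counts cannot test the scaling in data where 64.5% of genes are called.

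The alternatives were DESeq2 1.42.0, limma-voom (limma 3.58.1), RLE size factors, library totals alone, no filter, at least 10 counts in every library, binomial thinning to the shallowest library, a prior count of 2, the longest transcript as length and each library left out. The naming rule picked the 10 members, VHL, and from each role list up to 3 genes called in a direction, taken by size of fold change. Some of the genes it picked are not named in the text. FUNDC1, GABARAP, MAP1LC3B2, TFE3 and CD14 were named after their values were seen. Members and lists were chosen with earlier results of these data known. Some autophagy genes are not reported here.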

Additional observations from a re-analysis of the deposited data

How the results depend on the processing

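GABARAPL1, MAP1LC3B, ULK1 and SQSTM1 kept their direction and call under all 12 alternatives of the test. Their log2 fold changes lay between 1.32 and 1.57, 1.04 and 1.20, 0.98 and 1.17, and 0.45 and 0.67, with a highest FDR of 0.000223 for SQSTM1. With library totals alone, 7 members were higher, adding BECN1 (0.24, FDR 0.0155), ATG5 (0.27, FDR 0.00173) and ATG9A (0.27, FDR 0.0015), and WIPI1 turned to 0.0090 (FDR 0.951). That scaling moved the median log2 fold change of all genes from 0.02 to 0.15 and the higher share of called genes from 50.5% to 62.1%. Thinning left 0 members called lower (BNIP3 -0.20, FDR 0.0809). With single libraries left out WIPI1 lay between -0.21 and 0.11, the latter (FDR 0.633) without 786-O-VHL replicate 2. Leaving out single libraries gave 4 to 5 members higher and 1 lower. DESeq2 called 23 listed genes higher in place of 36, and library totals alone 49. It called 5966 of all genes, thinning 5750, single libraries left out 6049 to 8209, and edgeR 7956 with all libraries. With the longest transcript as length the BNIP3 to BNIP3L ratio was 1.70 in control cells and 1.48 in VHL-restored cells, and the GABARAPL1 share 27.9% and 36.9%. The naming rule picked 40 genes besides the members, and some of them are not named above. Of these 40, 19 lost their call in at least 1 alternative and 0 changed sign. No paired analysis was possible because both 786-O-Ctrl columns carry the same replicate number. The 2807779 counts of 786-O-VHL replicate 1 limit genes with few counts most.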
